A study of Mus musculus with 13 samples.

Results

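Control tumours of the RPP mouse model of small cell lung cancer were described here: 6 tumours with the genotype sgControl RPP, out of 13 tumours in the series. They were chosen by that genotype label alone and are called by their titles, t18_221, t18_222, t18_227, t535, t542 and t645. All 6 arose in congenic BL6J mice with a Lox-stop-lox Cas9 allele. In the RPP model, Cas9 with guides against Rb1, Trp53 and Rbl2 inactivates these tumour suppressors in the lung, and the control tumours carried a further, control guide. Each tumour was taken at necropsy without treatment and flash-frozen. The labels call the material tumour cells, but they describe no step that separates cells, so the RNA is taken here as that of whole tumour pieces. The labels give neither the age nor the sex of the mice, which tumours share an animal, nor the meaning of the prefix t18_ that 3 of the titles carry. Each tumour was sequenced as 1 library, so the spread given below joins differences between tumours with those of sampling and library preparation.

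Small cell lung cancer is a fast-dividing tumour with the features of pulmonary neuroendocrine cells. Such cells store peptide hormones in dense-core vesicles, which hold granins such as chromogranin A, the product of Chga, and peptides such as calcitonin gene-related peptide, the product of Calca. The tumours often express 1 of 3 related transcription factors at a high level, the products of Myc, Mycl and Mycn, and in mice loss of Rb1 and Trp53 typically gives neuroendocrine tumours with high Mycl. A piece of lung tumour also holds alveolar epithelium, vessels, fibroblasts and macrophages, and Sftpc, the gene of surfactant protein C, marks alveolar type 2 cells.

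The deposited tables held 16835726 to 22910187 gene counts per tumour. On these totals, before any scaling, 3 counts amounted to 0.131 to 0.178 CPM, the unit of counts at a common library size. Protein-coding genes took 97.1% to 98.8% of the counts and the mitochondrial genome 0.875% to 2.05%. A pair of ribosomal RNA-like genes, Gm23935 and CT010467.1, took 1.45% in t18_221 and 1.07% in t18_227, against 0.0773% to 0.211% in the others. The library of t645 stood apart: its 100 most counted genes took 18.7% of the counts, against 10.9% to 13.7% in the other 5 tumours. Its TMM scaling factor was 0.829, against 1.01 to 1.06. Earlier results of these data had already marked t645 as the tumour richest in normal tissue, so its levels of normal lung, stromal and immune genes are a description here, with no test, and results are given with t645 and without it. CPM is used below for 1 gene across tumours, on TMM-scaled library sizes, and the authors' FPKM, which divides by gene length, for levels of different genes.

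The genes that define neuroendocrine tumours were expressed in all 6 libraries, as the label of small cell lung cancer would have it. Chga was counted at 609 CPM in t18_221, 655 in t18_222, 522 in t18_227, 504 in t535, 387 in t542 and 351 in t645. It was the steadiest of the 5 marker genes, with an SD of 0.36 on the log2 scale over 6 tumours and 0.29 without t645, and a ratio of 1.87 between highest and lowest. Insm1, a zinc finger factor of neuroendocrine cells, spanned 315 to 609 CPM in 5 tumours and was at 139 CPM in t645. Calca was at 254 CPM in t18_221, 469.8 in t18_222, 1472 in t18_227, 988 in t535, 1408 in t542 and 954 in t645. Its lowest values were those of t18_221 and t18_222, and t645 stood inside the range of the other tumours.

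**Figure D1:**
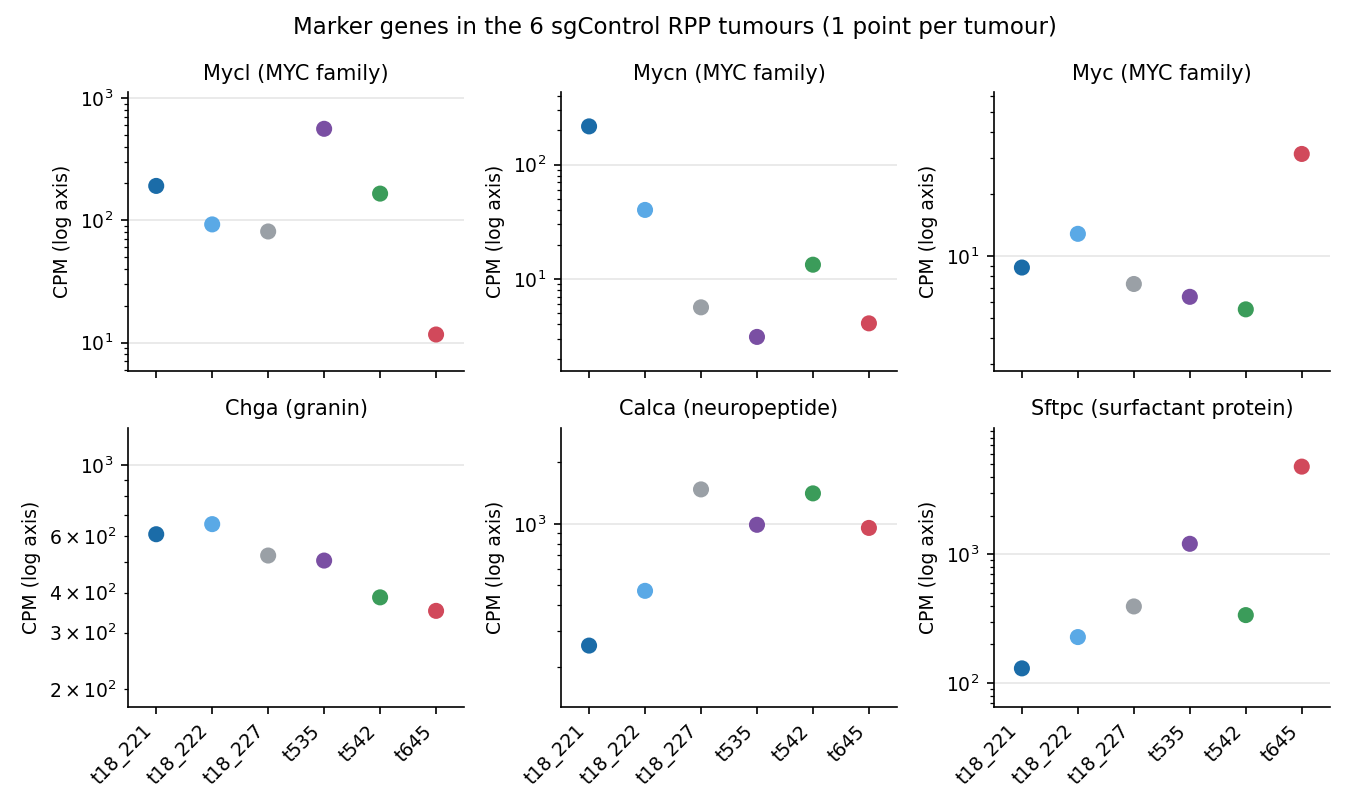
Level of 6 marker genes in the 6 sgControl RPP tumours, in CPM on TMM-scaled library sizes (log axes that differ between panels, 1 point per tumour, no error bars because each tumour was sequenced once). Chga spans 351 to 655 CPM, whereas Mycl spans 11.6 to 559.7 CPM and Mycn 3.11 to 216 CPM; t645 has the highest Sftpc and Myc.

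Of the MYC family, Mycl and Mycn differed widely between tumours and Myc less so. Mycl stood at 191 CPM in t18_221, 92.5 in t18_222, 80.9 in t18_227, 559.7 in t535, 165 in t542 and 11.6 in t645. Mycn was at 216 CPM in t18_221, 40.2 in t18_222, 5.64 in t18_227, 3.11 in t535, 13.3 in t542 and 4.08 in t645. Mycl was thus high in t535 and low in t645, whereas Mycn was high in t18_221 alone and next in t18_222. Myc spanned 5.51 to 12.8 CPM in 5 tumours and was at 31.4 CPM in t645. Between-tumour SDs on the log2 scale were 1.85 for Mycl, 2.33 for Mycn and 0.91 for Myc. Without t645 they were 1.11, 2.41 and 0.47 in the same order. Per gene length, Mycl was the highest of the family at 43.1 ± 46.2 FPKM, followed by Mycn at 13.6 ± 24.3 FPKM and Myc at 4.17 ± 3.39 FPKM (SD, n = 6). As each SD is close to its mean or above it, the order of the means was not that of every tumour: in t18_221 Mycn reached 62.5 FPKM and Mycl 45 FPKM, and in t645 Myc reached 10.9 FPKM, Mycl 2.71 FPKM and Mycn 1.16 FPKM.

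The levels of genes beside Mycn and Mycl were set next to those of the MYC genes themselves. Ddx1, an RNA helicase gene that neighbours Mycn on chromosome 12, was at 531 CPM in t18_221, 162 in t18_222, 174 in t18_227, 89.9 in t535, 161 in t542 and 139 in t645. Nbas, a further neighbour, was at 76.5 CPM in t18_221 and between 38.0 and 53.6 CPM in the other 5 tumours. These genes were highest in t18_221, the tumour with the highest Mycn. Fam49a, the last of the 3 neighbours counted, was not: it was at 48.4 CPM in t645, 36.6 in t18_227 and 36.1 in t18_221, with 14.8 to 25.7 CPM in the other 3. Over the 15 genes that averaged 1 CPM or more within 1 Mb of Mycl on chromosome 4, the median difference from the median tumour was 0.44 on the log2 scale in t535, the tumour with the highest Mycl, and -0.55 in t18_222. It was 0.16 in t645, the tumour with the lowest Mycl, 0.10 in t18_227 and -0.34 in t542, and t18_221 was at the median, so the neighbours did not follow Mycl in every tumour. DNA copy number was not measured, and its part in these levels was not tested.

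Of the 21 neuroendocrine core genes found in the tables, all averaged 1 CPM or more. Their summed level was 5315 CPM in t18_221, 6712 in t18_222, 4477 in t18_227, 5212 in t535, 4913 in t542 and 2148 in t645, so that t645 stood below the other 5. The median SD of the list was 0.77 on the log2 scale, and 0.56 without t645. For all genes averaging 1 CPM or more it was 0.55 and 0.42. For genes of 100 to 1000 CPM, where the list's mean lay, it was 0.39 and 0.29. Ddc, which encodes the enzyme that makes dopamine and serotonin, had the most counts of the list, at 640 to 1370 CPM in 5 tumours and 328 CPM in t645. Uchl1, a ubiquitin hydrolase gene used as a neuroendocrine marker, spanned 309 to 518 CPM in 5 tumours and was at 234 CPM in t645. The most variable member was Stmn2, a neuronal microtubule regulator gene, at 95.0 CPM in t18_222 and at most 7.40 CPM elsewhere.

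Genes of dense-core vesicles and of peptide processing were expressed in every tumour, but not at 1 common level. Summed over 14 genes they reached 2589.5 CPM in t18_221, 3897 in t18_222, 3647 in t18_227, 4142 in t535, 5199 in t542 and 1927 in t645. Pcsk1, the gene of a prohormone convertase, was highest in t542 at 1356 CPM and lowest in t645 at 282 CPM. Scg2, a granin gene, was at 141 CPM in t18_221, 233 in t18_222, 635 in t18_227, 193 in t535, 1376 in t542 and 229 in t645. Its high values were those of t542 and t18_227, and its SD was 1.25, or 1.36 without t645. Pam, whose enzyme amidates peptide hormones, was highest in t535 at 962 CPM, against 153 to 456 CPM in the other tumours.

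Among 25 peptide hormone genes, Calca had most of the counts: the list summed to 305 CPM in t18_221, of which Calca was 254 CPM, and to 1584 CPM in t18_227, of which it was 1472 CPM. Next came Resp18, a vesicle protein gene, at 29.8 to 96.7 CPM, and Iapp, the gene of islet amyloid polypeptide, at 1.99 to 6.30 CPM. Npy, the gene of neuropeptide Y, was at 11.8 CPM in t645 and at most 0.82 CPM in the other 5. Of the 25 genes, 3 had no more than 3 counts in any tumour.

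Lineage factors of the lung and of neuroendocrine cells were present throughout. Nkx2-1, a homeobox factor of lung epithelium, spanned 186 CPM in t535 to 549 CPM in t542. Prox1 was at 309 to 462 CPM in 5 tumours and at 148 CPM in t645. Sox11 was at 490.0 CPM in t18_221 and 538 in t18_222, against 358 CPM in t18_227, 101 in t535, 277 in t542 and 85.1 in t645. Neurod1, which defines another subtype of small cell lung cancer, reached at most 3.40 CPM, in t535, and had 0 counts in t18_221 and t542. Pou2f3, the factor of the tuft-like subtype, stayed at or below 0.43 CPM in all 6. Yap1, used to name a further subtype, was at 90.5 CPM in t645 and 6.66 to 13.1 CPM in the other 5 tumours. Markers of fibroblasts, endothelium and alveolar type 1 cells were also highest in t645, and their part in its Yap1 level was not tested.

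The most abundant messages per gene length included Ptma, Eef1a1 and Stmn1, which were high in every tumour, and genes such as Lyz2 and Sftpc, which were high above all in t645. At least 1 FPKM was measured for 11192 genes in all 6 tumours, of which 10604 were protein-coding, and for 11479 genes in the 5 tumours without t645. Any tumour reached that level for 16773 genes, while 24203 genes had 0 counts in all 6. At least 100 FPKM in every tumour was reached by 159 genes and at least 1000 FPKM by 5. Prothymosin alpha, Ptma, stood at 1858 ± 386 FPKM over 6 tumours and 1999.5 ± 189.6 FPKM over 5 (SD). Eef1a1, a translation elongation factor, stood at 1585 ± 518 FPKM over 6 tumours. Stmn1, a microtubule regulator of dividing and neural cells, averaged 816 ± 325 FPKM, and the calmodulin gene Calm2 644 ± 97.0 FPKM. The tubulin gene Tubb5 averaged 597 ± 189 FPKM, the elongation factor gene Eef2 586 ± 92.7 FPKM and the chaperone gene Hsp90ab1 536 ± 103 FPKM. Nov, a matricellular signalling protein gene, averaged 661 ± 460 FPKM and was highest in t535. Ptma, Eef1a1 and Tubb5 have processed pseudogenes, so that their counts are uncertain to the extent that reads were shared with these copies.

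Other genes of the most abundant set owed their mean to t645. Fth1, the ferritin heavy chain, averaged 1795 ± 3117 FPKM with t645 and 524 ± 135 FPKM without it. Lyz2, the lysozyme of macrophages and alveolar type 2 cells, averaged 1780 ± 3356 FPKM with t645 and 416 ± 348 FPKM without it. For Apoe, an apolipoprotein gene of macrophages among other cells, the means were 1160 ± 2365 FPKM and 195 ± 76.7 FPKM. Sftpc averaged 1077 ± 1647 FPKM with t645 and 420 ± 398 FPKM without it. The same held for Spp1, the osteopontin gene, at 752 ± 1617 FPKM with t645 and 93.2 ± 98.2 FPKM without it. The ferritin light chain gene Ftl1, the lysosomal gene Psap and the actin regulator gene Tmsb4x averaged 603 ± 820, 879 ± 897 and 651.3 ± 657 FPKM with t645, and 269 ± 74.3, 519 ± 178 and 390 ± 160 FPKM without it. Each of these SDs over 6 tumours exceeds its mean, and the values without t645 describe the other 5 more closely.

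Genes of cell division were about as even as genes of their level among the 5 tumours without t645. The 20 genes of the list had a median SD of 0.26 on the log2 scale. It was 0.29 for genes of 100 to 1000 CPM, the level of the list's mean, and 0.42 for all genes. With t645 the medians of the list and of all genes were 0.55, and that of genes of 100 to 1000 CPM was 0.39. The mean of the 20 proliferation genes was 7.81 log2 CPM in t18_221, 7.75 in t18_222, 7.71 in t18_227, 7.71 in t535, 7.55 in t542 and 6.53 in t645. The SD of this mean was 0.10 over the 5 tumours without t645, and t645 was below all of them. Pcna, the DNA polymerase clamp, spanned 550 to 629 CPM in 5 tumours (SD 0.07 on the log2 scale) and was at 299 CPM in t645. Mki67, a marker of cycling cells, was at 984 to 1264 CPM in 5 tumours (SD 0.14) and at 369 CPM in t645. Top2a, the topoisomerase of mitosis, was at 1056 to 1643 CPM and at 351 CPM in t645. Rrm2, a subunit of ribonucleotide reductase, was the least even of the list, at 389, 374 and 296 CPM in t18_221, t18_222 and t18_227, against 117 CPM in t535, 166 in t542 and 133 in t645. The lower sums of neuroendocrine and proliferation genes in t645 came beside its higher sums of stromal and immune markers. In bulk RNA, fewer cells of a type and less RNA per cell cannot be told apart.

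The genes of the guides were expressed as RNA in every tumour. Rb1 spanned 49.9 to 79.9 CPM, Rbl2 18.6 CPM in t535 to 54.4 CPM in t645, and Trp53 16.1 CPM in t542 to 71.9 CPM in t645. Small insertions and deletions at a guide site need not remove a transcript, so these levels do not report on the edits. Kdm6a, not targeted in these tumours, was at 110 CPM in t535 and 51.2 to 75.0 CPM in the other 5.

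Genes that serve as surface targets or Notch pathway members differed in how even they were. Sez6, a membrane protein gene of neurons, was at 135 to 159 CPM in 5 tumours (SD 0.09 on the log2 scale) and at 63.8 CPM in t645. Kit, a receptor tyrosine kinase gene, spanned 88.5 to 161 CPM with t645 inside that range. Ret, the receptor of glial cell line-derived factors, was at 57.9 CPM in t18_221, 135 in t18_222, 208 in t18_227, 479 in t535, 387 in t542 and 133 in t645. The ganglioside synthase gene St8sia1 was at 22.1 CPM in t18_221 and 42.2 in t18_222, against 1.30 to 2.16 CPM in the other 4. The Notch pathway list had a median SD of 0.74, or 0.50 without t645. Its most counted member, Hes6, a repressor linked to neuroendocrine cells, spanned 147 to 333 CPM. Jag2, a Notch ligand gene, spanned 108 to 362 CPM. The non-canonical ligand gene Dlk1 was at 23.3 CPM in t18_221 and 46.9 in t18_222, against at most 0.77 CPM in the other 4.

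Antigen presentation genes were expressed in all the tumours and were highest in t645. The class I heavy chain gene H2-K1 was at 2698 CPM in t645, against 415 to 916 CPM in the other 5, and the light chain gene B2m at 1749 CPM in t645, against 202 to 502 CPM. Within the 5, both were highest in t18_227 and t542. Summed over 9 class I genes, t645 reached 8541 CPM, against 1486 to 2834.5 CPM in the others. The class II invariant chain gene Cd74 was at 1182 CPM in t645 and 119 to 252 CPM in the other 5. Mcl1, a survival gene of the BCL2 family, was at 713 CPM in t645 and 139 to 178 CPM in the others. The share of immune cells and the level per tumour cell were not measured, so their parts in these values were not tested.

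Over all 15651 genes that averaged 1 CPM or more, the median between-tumour SD was 0.55 on the log2 scale, and 0.42 without t645. An SD over 1 was found for 4023 genes (25.7%) in the 6 tumours and for 2454 genes (15.7%) in the 5. Of these, 2301 genes passed in both sets, 1722 only with t645 and 153 only without it. In 1933 of the 4023 genes (48.0%) the highest tumour was t645. The biological coefficient of variation estimated by edgeR was 0.654 over the 6 tumours and 0.512 without t645. Leaving out any other tumour gave 0.663 to 0.680.

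**Figure D2:**
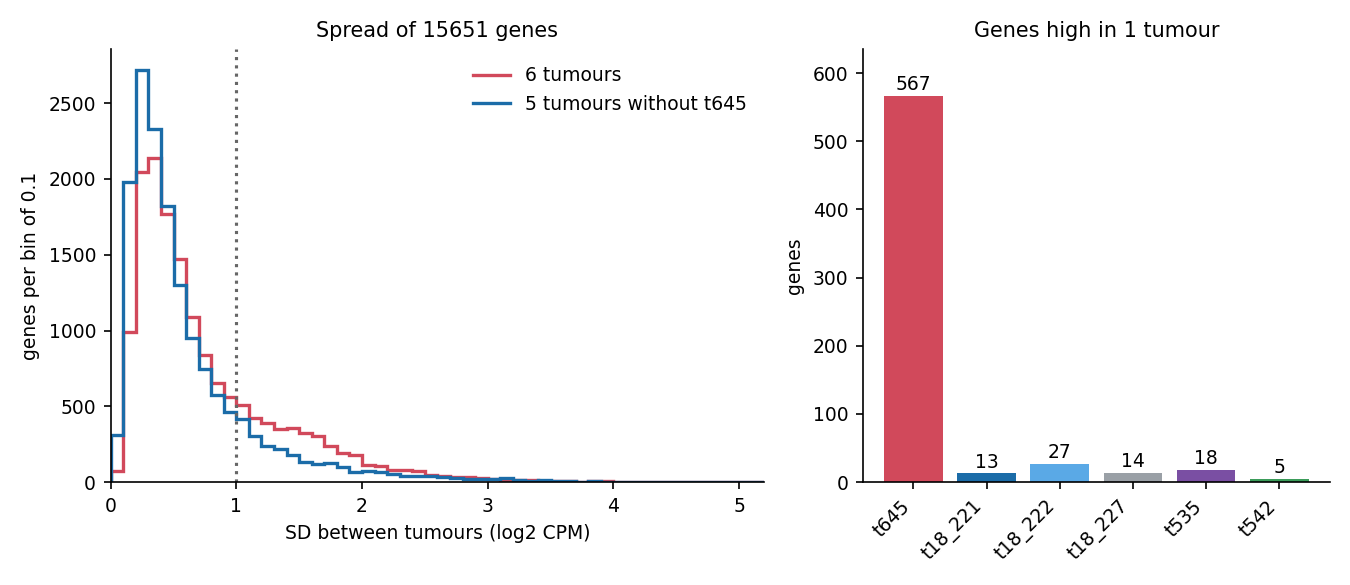
Left, number of genes per bin of 0.1 of the between-tumour SD of log2 CPM, for 15651 genes that averaged 1 CPM or more, over 6 tumours and over 5 without t645; the dotted line marks an SD of 1, which 4023 genes exceed with t645 and 2454 without it. Right, number of genes at 5 CPM or more and at least 8 times the second highest tumour, by the tumour they are high in: 567 for t645 and 5 to 27 for the others.

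Spread depended on level. The median SD was 1.04 for genes of 1 to 5 CPM, 0.76 for those of 5 to 20 CPM, 0.44 for those of 20 to 100 CPM and 0.39 for those of 100 to 1000 CPM. The 41 genes above 1000 CPM had a median SD of 0.69, or 0.46 without t645. The evenest genes of at least 50 CPM were Dcaf12, a ubiquitin ligase adaptor gene, Dnajb1, a heat shock co-chaperone gene, Adprh, Hacd3 and Rnf40, with SDs of 0.05 to 0.07. Dcaf12 was at 74.3 to 82.0 CPM and Dnajb1 at 79.5 to 89.6 CPM over the 6 tumours. By comparison, the common reference genes Gapdh and Ppia had SDs of 0.29 and 0.18, and the 12 housekeeping genes a median SD of 0.37.

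The most variable genes were present in some tumours and near 0 in others. They were led by Uncx, a homeobox gene of axial development, with an SD of 4.94 on the log2 scale. Trank1 (4.63), the paired box gene Pax1 (4.60), the LIM homeobox gene Lhx1 (4.47) and the neurofilament gene Nefl (4.29) followed. Pax1 was at 189 CPM in t18_221, 193 in t18_222, 7.43 in t18_227, 3.15 in t535, 386 in t542 and 0 in t645. Nefl was at 173 CPM in t18_227 and 96.4 in t535, with 9.30 CPM in t18_222 and at most 1.68 CPM in the other 3. Hoxb9 was at 338 CPM in t18_221, 227.3 in t18_222, 31.9 in t18_227, 0.77 in t535, 42.9 in t542 and 0.31 in t645. Slc6a5, a glycine transporter gene, was at 73.1 CPM in t535 and 120 in t542, against at most 3.50 CPM elsewhere. Of the 10 genes of largest SD, Saa3, an acute phase gene, and F13a1, a coagulation factor gene of macrophages, were those highest in t645. Saa3 was at 2667 CPM there, against 0.66 to 11.8 CPM, and F13a1 at 845 CPM, against 0.20 to 7.05 CPM. Without t645 the 4 Y-linked genes, which had no counts in t535, had a median SD of 3.83. SDs of genes with values near 0 depend on the prior count of 2.

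Single tumours were compared by counting genes at 5 CPM or more and at least 8 times the next tumour. Such genes numbered 567 in t645, against 13 in t18_221, 27 in t18_222, 14 in t18_227, 18 in t535 and 5 in t542. Without t645, 102 genes of the other 5 tumours met the rule. The 567 were 4% of the 14191 genes that reached 5 CPM in any tumour. Of them, 53 belonged to the cell type and pathway lists examined, among them 13 of 14 macrophage genes, 7 of 12 YAP1-associated genes and 6 of 8 neutrophil genes. Endothelial and fibroblast genes gave 4 of 12 and 4 of 10, and both alveolar lists 3 of 10. Genes at least 8 times below the next lowest tumour were fewer, 40 in all, with 7 of them low in t645 and 18 in t535. Those low in t535 included the 4 Y-linked genes Ddx3y, Eif2s3y, Kdm5d and Uty, which had no counts in that tumour.

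**Figure D3:**
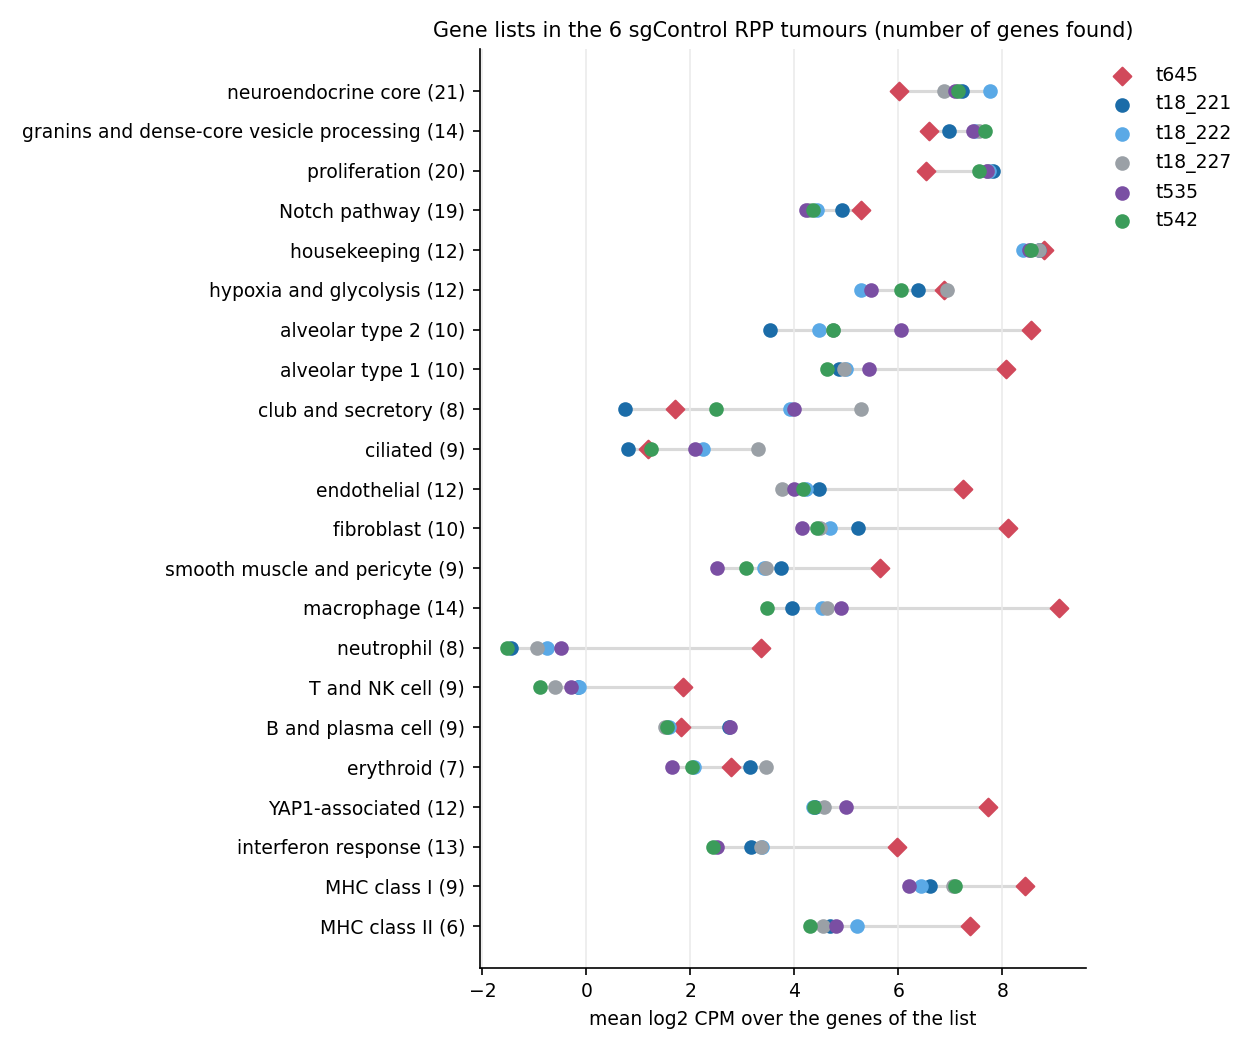
Mean log2 CPM of 22 gene lists in each of the 6 tumours (1 symbol per tumour, a diamond for t645, the number of genes found in brackets; lines join lowest and highest, and log2 CPM uses a prior count of 2). The macrophage list is at 9.08 in t645, against 3.47 to 4.90 in the other 5, whereas the proliferation list is at 6.53 in t645, against 7.55 to 7.81.

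Markers of normal lung and of immune cells set t645 apart. Sftpc was at 4797 CPM in t645, against 130 CPM in t18_221, 228 in t18_222, 394 in t18_227, 1207 in t535 and 338 in t542. The 14 macrophage genes summed to 23824 CPM in t645 and to 608 to 1849 CPM in the other 5, and 13 of 14 were highest in t645, as were 30.5% of all genes of 1 CPM or more. The neutrophil genes summed to 322 CPM in t645 and to 2.55 to 9.05 CPM elsewhere. Among the macrophage genes, Ctss, a lysosomal protease gene, was at 3293 CPM in t645 and 57.9 to 144 CPM in the others, and C1qa, a complement gene, at 1427 CPM and 36.6 to 110 CPM. Chil3, a lectin gene of alveolar macrophages, was at 2164 CPM in t645 and 1.52 to 107 CPM in the others, with t18_221 lowest. The T and NK cell list was low, with a sum of 52.0 CPM in t645 and 8.62 to 14.4 CPM elsewhere. B and plasma cell genes did not single out t645: their sum was 94.1 CPM there, against 198 CPM in t18_221, 90.4 in t18_222, 58.7 in t18_227, 152 in t535 and 64.6 in t542. Ighm, an immunoglobulin heavy chain gene, was at 7.30 CPM in t645 and 22.1 to 96.4 CPM in the others.

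Stromal and epithelial lists ran the same way, with exceptions in the airway. Cdh5, the cadherin of endothelial cells, was at 444 CPM in t645 and 24.9 to 37.9 CPM in the other 5. Vwf, also an endothelial gene, did not set t645 apart: it was at 749 CPM in t645, 831 in t542 and 585 in t535, against 145 to 242 CPM in t18_221, t18_222 and t18_227. Fibroblast genes summed to 9342 CPM in t645 and to 388 to 941 CPM in the others, with Fn1, the fibronectin gene, at 2422 CPM in t645 and 141 to 249 CPM in the others. Pdgfra, a receptor gene of fibroblasts, was instead highest in t18_222 at 509 CPM, with 97.2 CPM in t645. Ager, a marker of alveolar type 1 cells, was at 1284 CPM in t645 and 42.9 to 113 CPM in the others. Interferon response genes summed to 1088 CPM in t645 and 107 to 180 CPM in the others. How far the higher stromal and immune markers and the lower tumour cell genes of t645 go together through tissue makeup was not tested.

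Airway secretory and ciliated genes followed other tumours. The 8 club and secretory genes summed to 20.98 CPM in t18_221, 362 in t18_222, 972 in t18_227, 746 in t535, 358 in t542 and 119 in t645. Scgb1a1, the secretoglobin of club cells, was at 6.54 CPM in t18_221, 255 in t18_222, 601 in t18_227, 272 in t535, 96.0 in t542 and 11.9 in t645. Foxj1, the factor of ciliated cells, was at 164 CPM in t18_227 and 104 in t18_222, against 7.91 to 22.9 CPM in the other 4. The 9 ciliated genes summed to 59.6 CPM in t18_221, 185 in t18_222, 267 in t18_227, 101 in t535, 72.0 in t542 and 213 in t645. Both sums were highest in t18_227 and lowest in t18_221, whereas Foxj1 itself was lowest in t535. In t645, highest in alveolar genes, the club sum was the second lowest and the ciliated sum the second highest. By mean log2 CPM, however, the ciliated list was second lowest in t645. It was at 1.19 there, against 0.79 in t18_221 and 1.25 to 3.30 in the other 4. Of the 9 ciliated genes, 1 was highest in t645. Of the other lists, 5 of 6 mast cell and basophil genes had no more than 3 counts in any tumour, and the basal and squamous genes summed to at most 36.3 CPM.

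Glycolytic and hypoxia-responsive genes also differed between tumours. Eno1, a glycolytic enzyme gene, was at 1152 CPM in t18_221, 282 in t18_222, 2426 in t18_227, 476 in t535, 815 in t542 and 1145 in t645. Egln3, a prolyl hydroxylase gene known to be induced by low oxygen, was at 293 CPM in t18_227 and 20.5 to 88.5 CPM in the other 5. Summed over 12 genes the list was highest in t18_227 at 5915 CPM and lowest in t18_222 at 1233 CPM. Its mean had an SD of 0.69 on the log2 scale over 6 tumours and 0.67 without t645. Oxygen tension and the time between death and freezing were not measured, so their part was not tested.

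A pair of tumours, t18_221 and t18_222, shared 55 genes that were at 5 CPM or more in both and at least 8 times above each of the other 4, of which 51 were protein-coding. The other 14 pairs of tumours shared 0 to 6 such genes. The 55 genes lay on 18 chromosomes with at most 7 on any 1, and 39 of them were higher in t18_222 than in t18_221. Across the 15651 genes, which are not independent replicates, Spearman's correlation between these tumours was 0.952, the highest of the 15 pairs. It was 0.758 to 0.821 between t645 and the others, and 0.889 to 0.950 among the remaining pairs. In a principal component analysis of the 6 tumours, the first component (45.1% of the variance) set t645 apart and the second (25.5%) had t18_221 and t18_222 at its positive end. Without t645 the first component (46.4%) separated t18_221 and t18_222 from the other 3. The labels do not say whether these tumours came from 1 animal. The pair was noticed in the data, so its gene count is a description with no test.

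**Figure D4:**
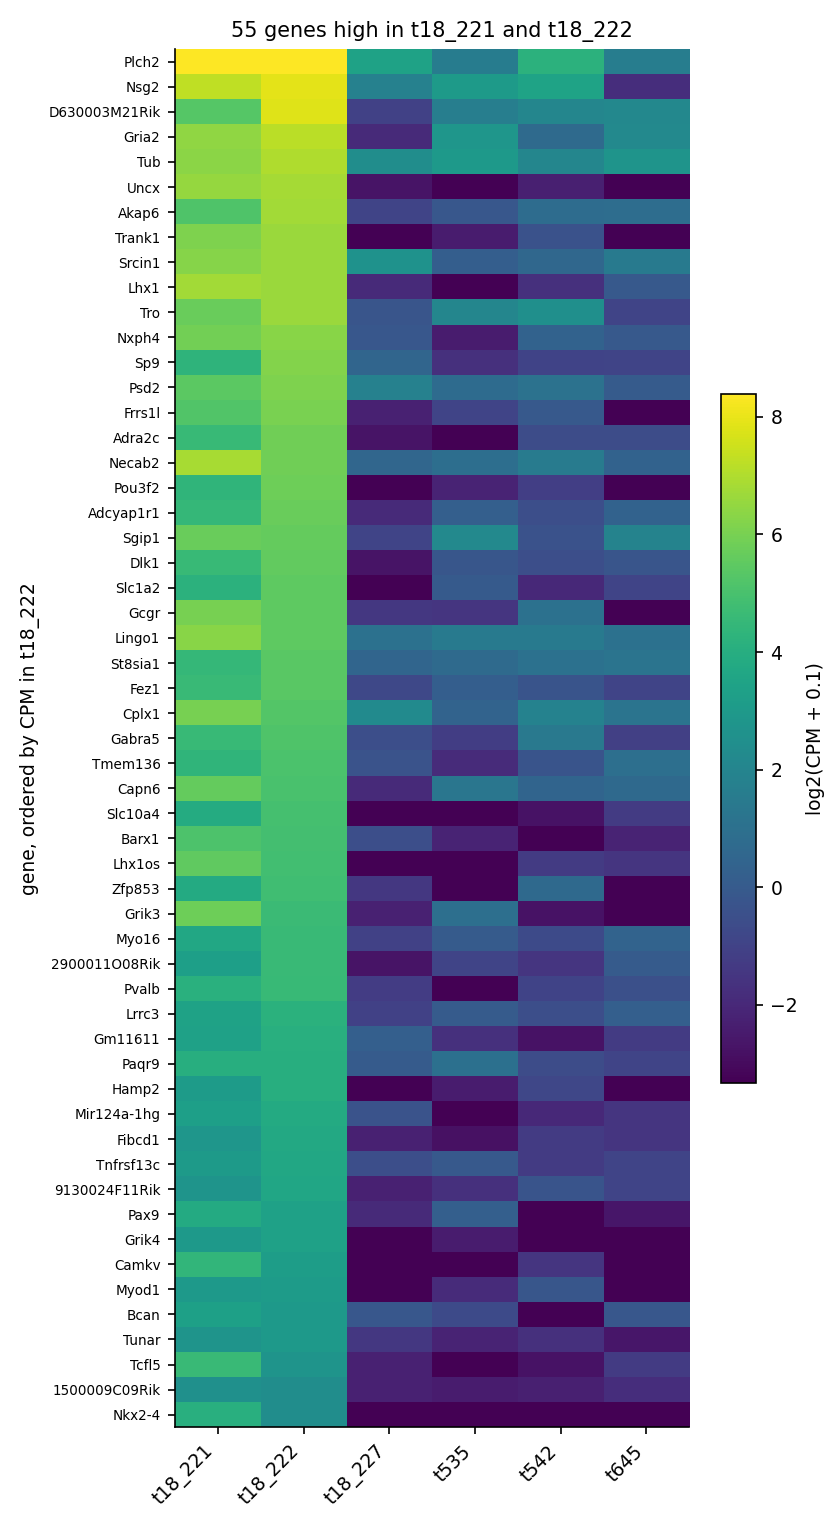
Level of the 55 genes that are at least 8 times higher in t18_221 and t18_222 than in each of the other 4 tumours, as log2(CPM + 0.1), ordered by level in t18_222. Uncx is at 92.6 and 111 CPM in the pair and at most 0.10 CPM in the others; Plch2, at the top, is at 329 and 336 CPM in the pair and at most 18.6 CPM in the others.

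Homeobox and other developmental transcription factor genes were among this shared set. Uncx was at 92.6 CPM in t18_221 and 111 in t18_222, against 0.05 CPM in t18_227, 0 in t535, 0.10 in t542 and 0 in t645. Lhx1 was at 108 CPM in t18_221 and 99.2 in t18_222, against 0.16 CPM in t18_227, 0 in t535, 0.20 in t542 and 0.87 in t645. Pou3f2, a POU domain factor of neurons, was at 20.1 CPM in t18_221 and 56.6 in t18_222, against at most 0.36 CPM in the other 4. Most of the low values lie at or under the level of 3 counts, so no ratio to them is given. Lhx1os, transcribed from the strand opposite Lhx1, was at 46.8 and 28.5 CPM in the pair and at most 0.31 CPM in the others, but the libraries did not keep strand, and reads from shared stretches cannot be told apart. Trank1 was at 70.6 and 99.6 CPM in the pair and at most 0.66 CPM in the others. Slc10a4, a transporter gene of monoaminergic and cholinergic neurons, was at 14.9 and 30.9 CPM in the pair, against at most 0.31 CPM in the others. Among receptor and synapse genes, Adra2c, an adrenergic receptor gene, was at 23.6 and 57.8 CPM, against at most 0.56 CPM, and Gria2, a glutamate receptor subunit gene, at 88.4 and 144 CPM, against at most 6.98 CPM. Plch2, a phospholipase C gene, had the most counts of the set, at 329 and 336 CPM, against 2.89 to 18.6 CPM. Nsg2, a neuronal endosome protein gene, was at 155 and 244 CPM in the pair, against 0.19 to 10.9 CPM. Sharing went beyond these strong genes: at a ratio of 4, 117 genes were shared by the pair, and at a ratio of 16, 28 genes.

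The promoters of 3 of these factors are shown because they were near silent in 4 tumours and high in the same pair. Each is the 250 bases before the gene's start, 5′ to 3′ on the gene's strand, from RefSeq on the build GRCm38.p6. Uncx is at chr5:139543648-139543897 on the plus strand, Lhx1 at chr11:84525535-84525784 and Pou3f2 at chr4:22488367-22488616 on the minus strand. Capitals mark CCAAT or its reverse complement ATTGG, the core of the CCAAT box, and GGGCGG or its reverse complement CCGCCC, a GC box; TATAAA was searched on both strands and is in none of the 3.
Uncx: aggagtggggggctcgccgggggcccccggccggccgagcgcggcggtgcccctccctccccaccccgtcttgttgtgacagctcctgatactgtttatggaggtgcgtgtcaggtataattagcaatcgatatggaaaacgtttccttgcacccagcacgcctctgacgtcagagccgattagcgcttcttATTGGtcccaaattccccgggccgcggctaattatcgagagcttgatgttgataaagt
Lhx1: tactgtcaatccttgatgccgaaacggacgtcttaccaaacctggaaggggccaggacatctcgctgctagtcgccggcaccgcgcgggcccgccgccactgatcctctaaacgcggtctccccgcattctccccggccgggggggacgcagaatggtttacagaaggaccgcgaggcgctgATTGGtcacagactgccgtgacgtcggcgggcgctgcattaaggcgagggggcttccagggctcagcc
Pou3f2: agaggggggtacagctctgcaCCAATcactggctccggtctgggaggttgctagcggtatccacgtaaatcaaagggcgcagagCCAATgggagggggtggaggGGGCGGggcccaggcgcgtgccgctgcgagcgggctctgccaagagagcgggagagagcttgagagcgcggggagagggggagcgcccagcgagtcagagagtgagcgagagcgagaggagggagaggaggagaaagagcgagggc
All are rich in CpG dinucleotides, with 20 in Uncx, 26 in Lhx1 and 18 in Pou3f2, beside a median of 6 over all 32851 promoters of the table. Promoters were found for 45 of the 55 genes, 53 promoters in all, with a median of 14 CpG and 63.2% G and C. That was close to the promoters of genes averaging 1 CPM or more, which had a median of 15 CpG and 59.6% G and C. A GC box was found in 56.6% of the 53, against 55.5% for genes of at least 1 CPM and 32.7% of all promoters. CCAAT was found in 33.96%, 34.51% and 33.85% of these sets, and TATAAA in 1.89%, 6.69% and 12.4%. Promoters of the genes high in t645 alone had a median of 4 CpG. A match is only a match of letters, and neither binding nor methylation was measured.

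Beyond this pair, each tumour other than t645 had a few genes of its own. In t18_222, Lmx1a, a LIM homeobox gene, was at 78.4 CPM, with 3.55 CPM in t18_221 and at most 0.55 CPM in the other 4, and Twist1, a factor of mesenchyme, was at 74.5 CPM, against at most 0.85 CPM. In t18_227, Sprr1a, a gene of squamous epithelium, was at 271 CPM, against 0.51 to 30.2 CPM, and Tenm2, a teneurin gene, at 159 CPM, against 0.26 to 9.34 CPM. In t535, Neurog3, a factor of endocrine progenitors, was at 96.2 CPM, against 0.31 to 6.54 CPM, and Nptx2, a neuronal pentraxin gene, at 326 CPM, against 17.1 to 34.8 CPM. In t18_221, BC034090 was at 62.7 CPM, against 0.64 to 3.03 CPM, and in t542, Ppp1r3a, a regulator of glycogen synthesis, was at 39.7 CPM, against 0.06 to 4.09 CPM.

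Nuclear factor I genes, which encode DNA-binding proteins that include the small cell lung cancer oncogene Nfib, did not vary alike. Nfib was at 1254 CPM in t18_221, 953 in t18_222, 214 in t18_227, 494 in t535, 384 in t542 and 144 in t645. Nfix was at 596 CPM in t18_221, 803 in t18_222, 173 in t18_227, 7.06 in t535, 166 in t542 and 137 in t645. Both were highest in t18_221 and t18_222, and Nfix was near absent from t535. Psip1, the most counted of the 8 genes near Nfib on chromosome 4, was at 1204 CPM in t18_221, 887 in t535 and 240.2 in t645, with 513 to 642 CPM in the other 3. Nfic spanned 161 to 351 CPM and Nfia 15.05 to 32.2 CPM.

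Genes low in 1 tumour included a pair of neighbours. Hnrnpul2, an RNA-binding protein gene, was at 21.9 CPM in t18_227, against 244 to 446 CPM in the other 5. Ttc9c was at 3.74 CPM in t18_227, against 36.4 to 89.9 CPM. As deposited, in mm10 coordinates, they lie side by side on chromosome 19, Ttc9c from 8809075 to 8819333 and Hnrnpul2 from 8819401 to 8834142. In the same tumour Vopp1 on chromosome 6 was at 9.49 CPM, against 82.6 to 129 CPM. A further 15 genes were low in both t18_227 and t645, such as the GABA receptor subunit gene Gabra4 at 0.22 and 0.06 CPM, against 31.3 to 49.3 CPM in the other 4.

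The title prefix t18_ is the only label that divides the 6 tumours, 3 against 3, and what it stands for is not stated. With edgeR, 0 of 16549 genes (0%) passed an adjusted p of 0.05 between tumours with and without the prefix, the smallest adjusted p was 0.617, and 1252 genes had an unadjusted p under 0.05. DESeq2 called 264 of the 17830 genes (1.48%) to which it gave an adjusted p. By group mean, 157 of them were higher and 107 lower in the tumours with the prefix. Not every such call was shared by all tumours with the prefix. Uncx, among the calls, was at 92.6 CPM in t18_221 and 111 in t18_222, but at 0.05 CPM in t18_227. Lhx1, also called, was at 108 CPM in t18_221 and 99.2 in t18_222, but at 0.16 CPM in t18_227. Nor was every call shared by all tumours without the prefix. Hmga2 (DESeq2 adjusted p = 4.30e-07) was at 4.58 CPM in t645 and at 0 CPM in every other tumour. DESeq2 was not run without t645, so how many of its calls rest on that tumour was not tested. Hrk, a BH3-only gene of the BCL2 family, was at 18.3, 6.49 and 11.01 CPM in the tumours with the prefix, against 0.38 in t535, 0.77 in t542 and 0.37 in t645. The groups did not overlap, with a log2 difference of 4.55 (SE 0.69, edgeR quasi-likelihood test, adjusted p = 0.617, DESeq2 adjusted p = 6.56e-09). Of 12762 genes averaging 5 CPM or more, 820 (6.43%) had all 3 tumours with the prefix above all 3 without it. The reverse held for 907 (7.11%). Tspan8, a tetraspanin gene, was at 2.03 to 5.78 CPM with the prefix, against 24.5 to 104 CPM without it, and Mef2c, a myocyte enhancer factor gene, at 3.85 to 5.88 CPM against 18.8 to 30.4 CPM. Mex3a, an RNA-binding protein gene, was at 50.2 to 103 CPM with the prefix, against 18.8 to 25.4 CPM without it. Hrk, Tspan8, Mef2c and Mex3a were named for their small unadjusted p in the edgeR test, so their separation adds nothing to it.

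The genes of chromosome 19 stood at different levels in the title series. Over its 427 genes with a mean of at least 5 CPM, the median difference from the median tumour was -0.27 in t18_221, -0.37 in t18_222 and -0.27 in t18_227 on the log2 scale, against 0.51 in t535, 0.43 in t542 and 0.27 in t645. The median log2 difference of these genes, tumours with the prefix minus those without, was -0.88, and -0.86 without t645, beside -0.03 over all 12762 genes of that level. All 3 tumours with the prefix lay below all 3 without it for 203 of the 427 genes (47.5%), beside 907 of all 12762 genes (7.11%). None of the 427 genes had the reverse order, which 820 of the 12762 (6.43%) had. Without t645 the 3 tumours with the prefix lay below the other 2 for 300 of the 427 genes (70.3%), beside 1837 of the 12762 (14.4%). Counted from the median of those 5 tumours, chromosome 19 was at -0.10 in t18_221, -0.22 in t18_222 and -0.04 in t18_227, against 0.64 in t535 and 0.58 in t542. With the chromosome's genes split by position into 4 blocks of like number, each block had, over the 6 tumours, a negative median in each of the 3 tumours with the prefix and a positive one in each of the 3 without. Without t645 the blocks were at -0.28 to 0 in the tumours with the prefix and at 0.48 to 0.92 in t535 and t542. With 3 tumours against 3, an exact two-sided permutation test cannot go below 0.10, and no p is given.

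**Figure D5:**
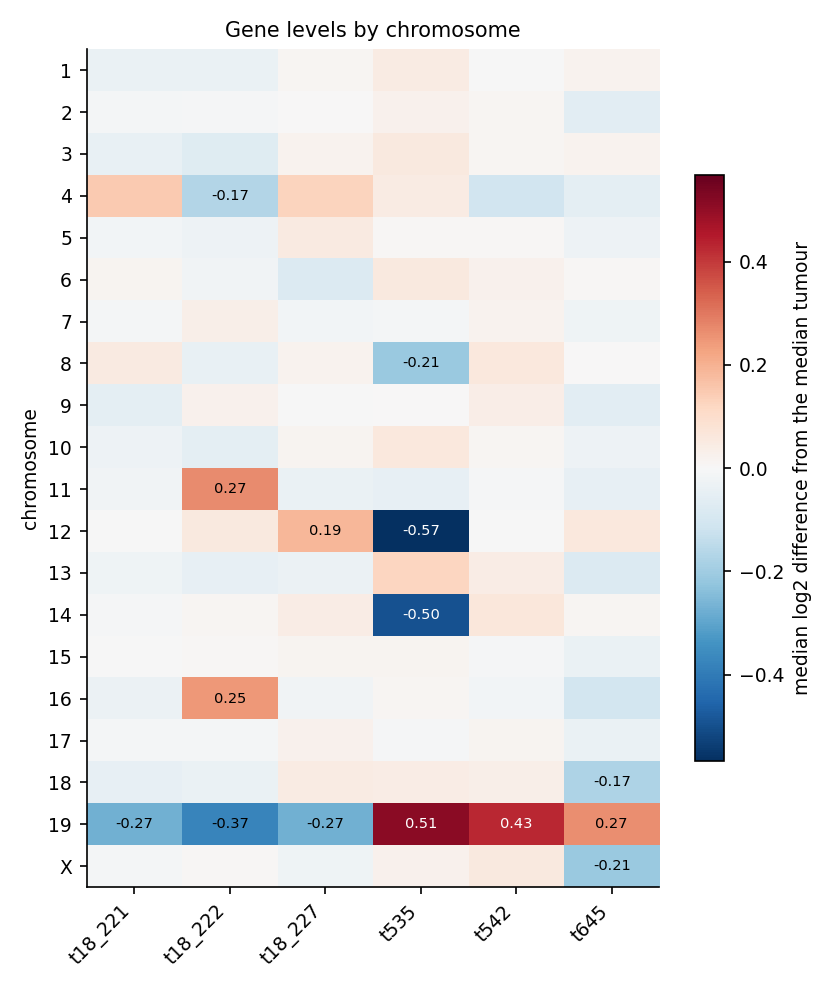
Median log2 difference from the median tumour for the genes of each chromosome (rows) that averaged 5 CPM or more, in the 6 tumours (columns); values of 0.15 or more in size are printed. Chromosome 19 is at -0.27 to -0.37 in the 3 tumours with the prefix t18_ and at 0.27 to 0.51 in the 3 without it, and chromosomes 12 and 14 are at -0.57 and -0.50 in t535.

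Other chromosomes stood out in single tumours. In t535 the median was -0.57 over the 457 genes of chromosome 12, of which 276 (60.4%) were lowest in that tumour, against 16.2% of all genes, and its 4 blocks gave -0.52 to -0.62. On chromosome 14 the median was -0.50 in t535, with -0.50 to -0.75 in the first 3 blocks and 0.10 in the last. On chromosome 8 it was -0.21 in t535, with 0.01 and 0.08 in the first pair of blocks and -0.47 and -0.82 in the last pair. Nfix lies in the third block of chromosome 8. In t18_222 the medians of chromosomes 11 and 16 were 0.27 and 0.25, and 44.7% and 45.6% of their genes were highest in that tumour, against 18.2% of all genes. Without t645 these medians were -0.56, -0.46 and -0.14 for chromosomes 12, 14 and 8 of t535, and 0.27 and 0.24 for chromosomes 11 and 16 of t18_222. DNA copy number was not measured, and its part in these medians was not tested.

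The sex chromosomes set 1 tumour apart. Xist, the RNA of X inactivation, was at 400.2 CPM in t535 and at most 2.66 CPM in the other 5, and the Y-linked genes Ddx3y, Eif2s3y, Kdm5d and Uty had 0 counts in t535 alone. A count of 0 allows up to 0.131 CPM there, on the total count before TMM scaling.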

How the data were processed

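RNA sequencing tables of 6 sgControl RPP tumours were used. Per the labels' protocols, RNA was column-extracted with DNase digestion, and non-stranded libraries were sequenced from both ends. STAR, DESeq2 and the build mm10 stand in the submitters' processing notes, with no versions. For the counting program and the annotation, a name was not given in the sources used here. The authors deposited raw gene counts for 54532 genes and FPKM, which equal the count over gene length and a constant of 0.883 to 1.12 times the total count. By identifier, 15 symbols that had become dates were restored.

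TMM factors, CPM, log2 CPM (prior count 2) and the quasi-likelihood test (filterByExpr, Benjamini-Hochberg, threshold 0.05) came from edgeR 4.0.16 in R 4.3.3. Alternatives used DESeq2 1.42.0 and limma 3.58.1. SDs used genes with a mean of at least 1 CPM, and chromosome medians those of at least 5 CPM. The limit given for genes without counts in t535 covers counting error only. Values after ± are SDs between tumours. Tumours are taken as separate samples, and p-values measure only the spread between them.

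The tumours and the 43 gene lists were chosen with earlier results of these data known. Named genes are the markers, the 20 of highest FPKM, the 10 of largest SD with and without t645, the 5 of smallest SD, the top genes of each tumour, list and title series, and neighbours of the MYC and NFI genes. The cell type lists hold markers used elsewhere in lung and immune tissue, and several genes stand in more than 1 list. Genes shared by t18_221 and t18_222, genes low in single tumours, Yap1, Pou2f3 and Hmga2 were named after their values were seen. Some genes that the rule takes are not reported here.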

Additional observations from a re-analysis of the deposited data

Results flagged for a closer look

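A tumour was taken to stand apart where the gap between the highest or lowest of the 6 tumours and its nearest neighbour, divided by the whole range, exceeded Dixon's critical value for 6 values. Chance gives this for about 1 in 20 values that were not chosen for standing apart. Many of the values here were: genes were named because 1 tumour was far from the others, and t645 was set aside for its normal tissue genes. The counts are therefore a description and cannot be read against that share. The measure was met by 52 of the 175 values looked at, with t645 apart in 36 of them, 28 as the highest and 8 as the lowest tumour.

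As the highest tumour, t645 stood apart in the mean level of endothelial (gap share 0.791), lymphatic endothelial (0.778), alveolar type 1 (0.766), fibroblast (0.727), mesothelial (0.653), macrophage (0.746), neutrophil (0.788), T and NK cell (0.728) and platelet genes (0.645). The YAP1-associated (0.811), BCL2 family (0.761), interferon response (0.733) and MHC class II lists (0.710) did the same. Single genes highest in t645 by this measure were Cdh5 (0.854), Mcl1 (0.85), Fth1 (0.814), Fn1 (0.799), Ctss (0.775), Ftl1 (0.763), Apoe (0.751), Yap1 (0.741), Ager (0.716), C1qa (0.700), Cd74 (0.673), Npy (0.667) and Saa3 (0.663). The shares of counts held by the 100 and the 1000 most counted genes were also highest there, with gap shares of 0.643 and 0.644. As the lowest tumour, t645 stood apart in the proliferation list (0.792) and in Sez6 (0.822), Pcna (0.820), Mki67 (0.797), Top2a (0.713), Calm2 (0.659), Ptma (0.654) and Prox1 (0.645).

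In t535 the Y-linked list (0.942) and its genes Eif2s3y (0.958), Kdm5d (0.934), Ddx3y (0.908) and Uty (0.865) were lowest, as was Nfix (0.626), and the X inactivation list (0.639) with Xist (0.639) and Nptx2 (0.760) were highest. In t18_227, Vopp1 (0.830), Hnrnpul2 (0.800) and Ttc9c (0.714) were lowest. In t18_221, BC034090 (0.675) and Ddx1 (0.630) were highest, and in t18_222 Hacd3 (0.705) and Twist1 (0.664). The range of Hacd3 was small, 113 to 128 CPM. No value had t542 apart.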

How the results depend on the processing

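The count of genes that differed between title series stayed at 0 in edgeR with RLE factors, without a filter on low counts, in limma-voom, in limma-trend on log2(FPKM + 1) and without each tumour in turn, but was 264 in DESeq2; the cause was not tested. At an unadjusted p under 0.05 the count was 1252 in edgeR, 2233 in DESeq2 and 548 to 2039 without 1 tumour. The smallest count came without t18_221 (548), the next without t18_222 (579) and the largest without t542 (2039).

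The 11192 genes at 1 FPKM in every tumour became 6210 at 5 FPKM and 11286 to 11479 without 1 tumour. The 4023 genes with an SD over 1 became 1574 on the log2(FPKM + 1) scale, 2516 for genes of at least 5 CPM, 6330 with no filter beyond 1 count and 2454 to 4184 without 1 tumour, of which 2454 is the count without t645. The 644 genes high in 1 tumour became 1390 at a ratio of 4, 196 at a ratio of 16 and 102 to 921 without 1 tumour: 102 without t645 and 921 without t18_221. The 55 genes shared by t18_221 and t18_222 became 117 at a ratio of 4, 28 at a ratio of 16 and 63 to 78 without 1 of the other tumours. The median log2 difference of chromosome 19 genes between title series, -0.88, was -0.75 on the log2(FPKM + 1) scale and -0.89 to -0.81 without 1 tumour. The last 2 results and their alternatives were added after seeing the data. No paired analysis was possible because the 6 tumours form 1 group and share no replicate numbers.

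Depth limits the low genes: at 3 counts, 0.131 to 0.178 CPM before TMM scaling, presence and absence cannot be told apart. Means of lists with many such genes, as of mast cell or hepatocyte genes, moved with the prior count. With 6 tumours an SD is itself imprecise, and genes or lists near a threshold can fall on either side of it.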
